A study of Mus musculus with 64 samples.

Results

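The clustered protocadherins are adhesion molecules of the cadherin superfamily that are encoded side by side on mouse chromosome 18. They were taken from a table of normalized counts as every row whose Ensembl ID belongs, in GENCODE vM21, to a protein-coding gene named Pcdha, Pcdhb, Pcdhga, Pcdhgb or Pcdhgc followed by a number, or Pcdhac followed by a number. Of the 18432 genes in the table, 56 met this rule, namely 14 of the alpha cluster, 21 of the beta cluster and 21 of the gamma cluster. The annotation holds 57 such genes, and Pcdhb1 has no row in the table analysed here. Pcdhgb8, which the annotation does not class as protein-coding, was not a member. GENCODE gives the symbol Pcdha11 to 2 of the genes. ENSMUSG00000102206 is called Pcdha11 here, and ENSMUSG00000007440 is called Pcdha10 after its position in RefSeq.

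The libraries came from the frontal cortex and the hippocampus of Cyfip2+/R87C knock-in mice (KI) and their wild-type littermates (WT), all on the C57BL/6N background. KI mice carry the p.Arg87Cys change in 1 copy of Cyfip2 in all cells, and CYFIP2 is a subunit of the WAVE complex that controls branched actin. Mice were sampled at 4 ages, postnatal week (PWK) 1, PWK 7, PWK 14 and PWK 28, with 4 mice per genotype and age, both regions being taken from each mouse, which gave 16 groups of 4 libraries and 64 libraries from 32 mice. KI mice begin to die and to have seizures as adults, so the libraries from the older ages came from animals that had survived until then. Poly(A) or total RNA was used (the labels name an mRNA kit and the methods a total RNA kit), and the library totals after normalization were between 29225576 and 32601227. No library was left out.

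Each alpha and gamma gene has its own promoter and a large variable exon that encodes the extracellular cadherin repeats, the transmembrane part and a short stretch of the cytoplasmic tail. This exon is spliced to constant exons that all genes of the cluster share. Beta genes have a single coding exon and no constant part. A neuron chooses a few of the promoters by chance, helped by CTCF, cohesin and DNA methylation, and the proteins bind only to the same isoform on another membrane, by which neurites of 1 cell recognise and avoid each other. The genes at the distal end of the alpha and gamma clusters (Pcdhac1, Pcdhac2, Pcdhgc3, Pcdhgc4 and Pcdhgc5) are called C-types. They are less subject to this random choice, and the remaining alpha and gamma genes are called alternate isoforms. The shared alpha tail is known to bind the kinase PYK2 (Ptk2b) and the WAVE complex.

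In GRCm38 all members lie on the plus strand of chromosome 18, where the alpha members span positions 36930184 to 37187661, the beta members 37294812 to 37524479 and the gamma members 37661793 to 37841873. The constant exons make up between 48.6% and 54.9% of each alpha transcript and between 41.7% and 45.5% of each gamma transcript. Of the 31-base words of a member's transcript, a median of 36.4% of an alpha member's, 53.0% of a gamma member's and 87.9% of a beta member's occurred in no other annotated gene. Reads from constant exons cannot be assigned to 1 gene by sequence alone, so the division of reads among alpha members, and among gamma members, is uncertain. Such a division among members leaves the sum over their cluster as it is, but a division with genes outside the set, such as Pcdhgb8, can change it. Pcdha4 had the least sequence of its own (2.2%), as it also overlaps the gene model Gm42416. Of the 3584 values of members, 0 were at zero, and all 56 members passed the filter on low values in every comparison.

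The gamma cluster held the most RNA in every group and the beta cluster held less than the alpha cluster at PWK 1. Levels per kilobase of transcript, which allow genes to be compared, summed in the WT cortex at PWK 1 to 2930 ± 256 (SD, n = 4) normalized counts per kb for alpha members, to 1245 for beta members and to 5191 for gamma members. Over all 64 libraries the C-types led. Pcdhgc5, which is known to bind GABA-A receptors, had a mean of 1005 normalized counts per kb. Pcdhgc3, a promoter of dendrite branching that astrocytes also express, had 884.9, and Pcdhgc4, which developing neurons need for survival, had 559.5. Pcdhac2, which serotonergic axons need to spread evenly over their targets, followed at 498.5, whereas Pcdhac1 ranked at position 40 of the 56 with 46.56. The highest gamma alternate isoform was Pcdhga11 (316.4) and the lowest were Pcdhgb4 (65.71) and Pcdhgb5 (61.98). Among alpha alternate isoforms Pcdha12 (135.3) and Pcdha5 (113.7) were highest, and Pcdha1 (27.17) and Pcdha8 (4.637) were lowest. Beta members lay closer together, from Pcdhb9 (110.4), Pcdhb17 (97.13) and Pcdhb20 (87.58) down to Pcdhb4 (22.74) and Pcdhb6 (19.06).

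**Figure D1:**
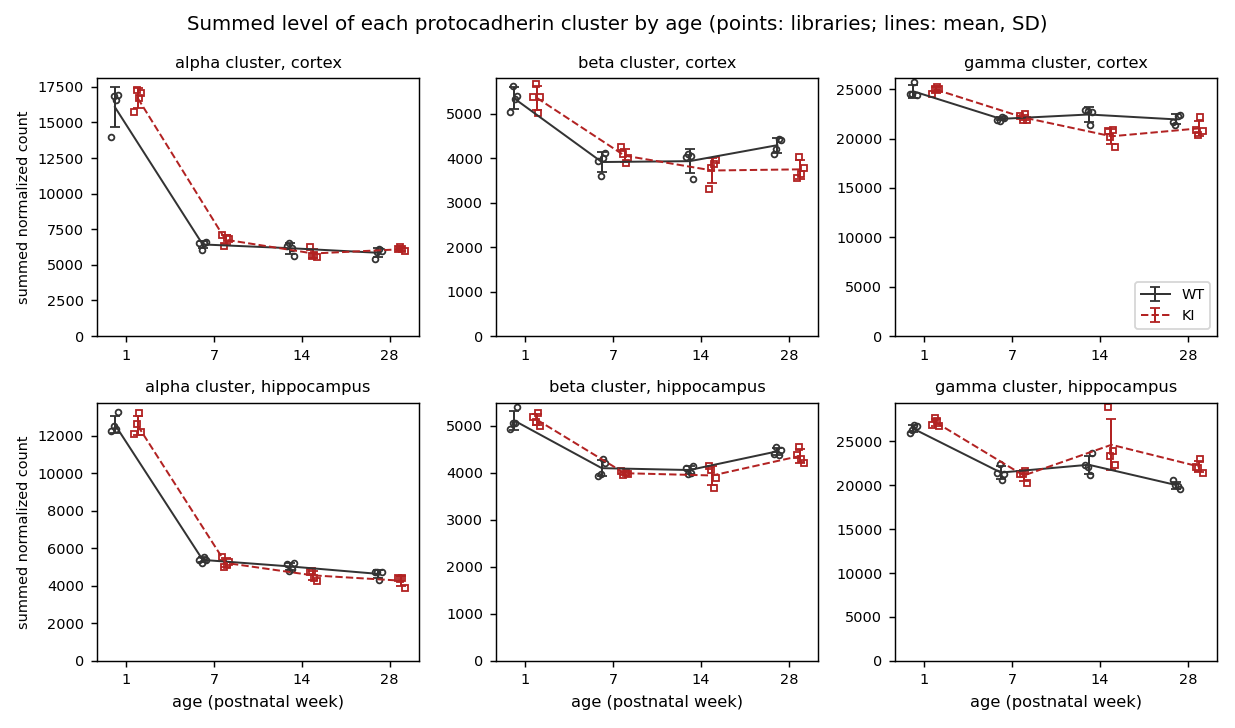
Summed normalized counts of the alpha, beta and gamma members in every library, by region, age in postnatal weeks and genotype. Points are libraries, lines join group means and bars give the SD. The WT alpha sum in cortex goes from a mean of 16083 at PWK 1 to 6434 at PWK 7, while the gamma sum goes from 24794 to 21993.

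The first comparison asked how the repertoire changes between the neonatal and the adult WT brain. From PWK 1 to PWK 7 alpha RNA fell steeply in both regions, beta and gamma members fell with smaller medians, and a single member, Pcdhgc5, rose. In the WT cortex the alpha members summed to 13981, 16832, 16605 and 16912 normalized counts at PWK 1 and to 6544, 6075, 6512 and 6604 at PWK 7. The libraries of both ages did not overlap, and the mean at PWK 1 was 2.5 times that at PWK 7. In the WT hippocampus the same ratio was 2.34, from 12606 ± 467 (SD, n = 4) to 5382 ± 134. The beta sum was 1.37 times as high at PWK 1 as at PWK 7 in cortex and 1.25 times in hippocampus, and the gamma sum 1.13 and 1.23 times. KI mice had alpha ratios of 2.47 in cortex and 2.40 in hippocampus. After PWK 7 the WT alpha sum stood at 6169 ± 379 at PWK 14 and 5847 ± 317 at PWK 28 in cortex, and at 5031 ± 197 and 4635 ± 203 in hippocampus.

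Called here means an adjusted p under 0.05 in limma on log2(value + 1), with the Benjamini-Hochberg adjustment over all genes, and fold changes are on that log2 scale. In WT cortex, 43 members were lower and 1 was higher at PWK 7 than at PWK 1, beside 32.7% of all genes tested called lower and 32.5% called higher. In WT hippocampus, 40 were lower and 1 higher, beside 30.4% and 30.9% of all genes. Of these, 37 were lower in both regions. The median log2 difference in cortex was -1.64 over alpha members, -0.48 over beta members and -0.54 over gamma members, and 0.01 over all genes. In hippocampus the medians were -1.59, -0.32 and -0.33, and 0.01 over all genes. The age groups are different mice, and the labels give no sequencing batch, so that a batch and age cannot be told apart.

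All 12 alpha alternate isoforms fell in both regions. Pcdha3 had 887, 1094, 1062 and 1228 normalized counts in the WT cortex at PWK 1 and 227, 273, 203 and 145 at PWK 7, a log2 difference of -2.35 (SE 0.16, adjusted p = 1.27e-07). Its highest library at PWK 7 lay far below its lowest at PWK 1. In hippocampus Pcdha3 went from 841, 901, 831 and 939 to 243, 242, 236 and 260 (log2 -1.84, adjusted p = 2.16e-09). The next in cortex were Pcdha7 (log2 -2.03), Pcdha2 (-2.01) and Pcdha9 (-1.76), and in hippocampus the low-count Pcdha8 (-2.05), Pcdha9 (-1.80) and Pcdha11 (-1.77). Alternate isoforms took 69.3% ± 0.12 (SD, n = 4) of the alpha RNA per kb in the WT cortex at PWK 1 and 54.5% ± 1.45 at PWK 7. In hippocampus their share was 65.5% ± 1.14 and then 52.9% ± 1.36.

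Pcdhac2 took most of the remaining alpha RNA. It fell as well, by 0.84 on the log2 scale in cortex (adjusted p = 3.54e-07) and by 0.80 in hippocampus (adjusted p = 2.12e-08). Its WT cortical libraries had 4346, 5226, 5132 and 5247 normalized counts at PWK 1 and 2735, 2603, 2741 and 3019 at PWK 7, without overlap. The mean share of Pcdhac2 in alpha RNA per kb went from 28.9% to 40.7% in cortex and from 31.2% to 42.6% in hippocampus. Pcdhac1 fell in hippocampus, from 453, 425, 360 and 380 to 237, 236, 275 and 197 (log2 -0.78, adjusted p = 0.000106). In cortex it had 232, 310, 314 and 266 at PWK 1 and 327, 276, 323 and 284 at PWK 7, which overlap (log2 0.11, adjusted p = 0.386).

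Pcdhgc5 had 2373, 1801, 2785 and 1954 normalized counts in the WT cortex at PWK 1 and 6216, 5899, 6444 and 6326 at PWK 7. Every library at PWK 7 was above every library at PWK 1 (log2 1.50, SE 0.11, adjusted p = 1.78e-07). In hippocampus it went from 2251, 1462, 2059 and 1723 to 4752, 5511, 4737 and 4976 (log2 1.43, SE 0.11, adjusted p = 8.31e-07). Its mean share of gamma RNA per kb went from 9.0% to 28.5% in cortex and from 7.1% to 23.3% in hippocampus. Pcdhgc3 went the other way. Its WT libraries held 4196 to 4670 counts in cortex at PWK 1 and 3234 to 3423 at PWK 7 (log2 -0.40, adjusted p = 5.83e-06), and 6582 to 7206 and then 3572 to 3908 in hippocampus (log2 -0.86, adjusted p = 1.5e-08). Pcdhgc4 fell by 0.24 in hippocampus (adjusted p = 0.0154), and in cortex its log2 difference was -0.07 (adjusted p = 0.369). Together the gamma C-types made up 41.2% ± 1.71 (SD, n = 4) of gamma RNA per kb in the WT cortex at PWK 1 and 59.1% ± 1.51 at PWK 7, and 42.9% ± 0.75 and 51.2% ± 0.41 in hippocampus.

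**Figure D2:**
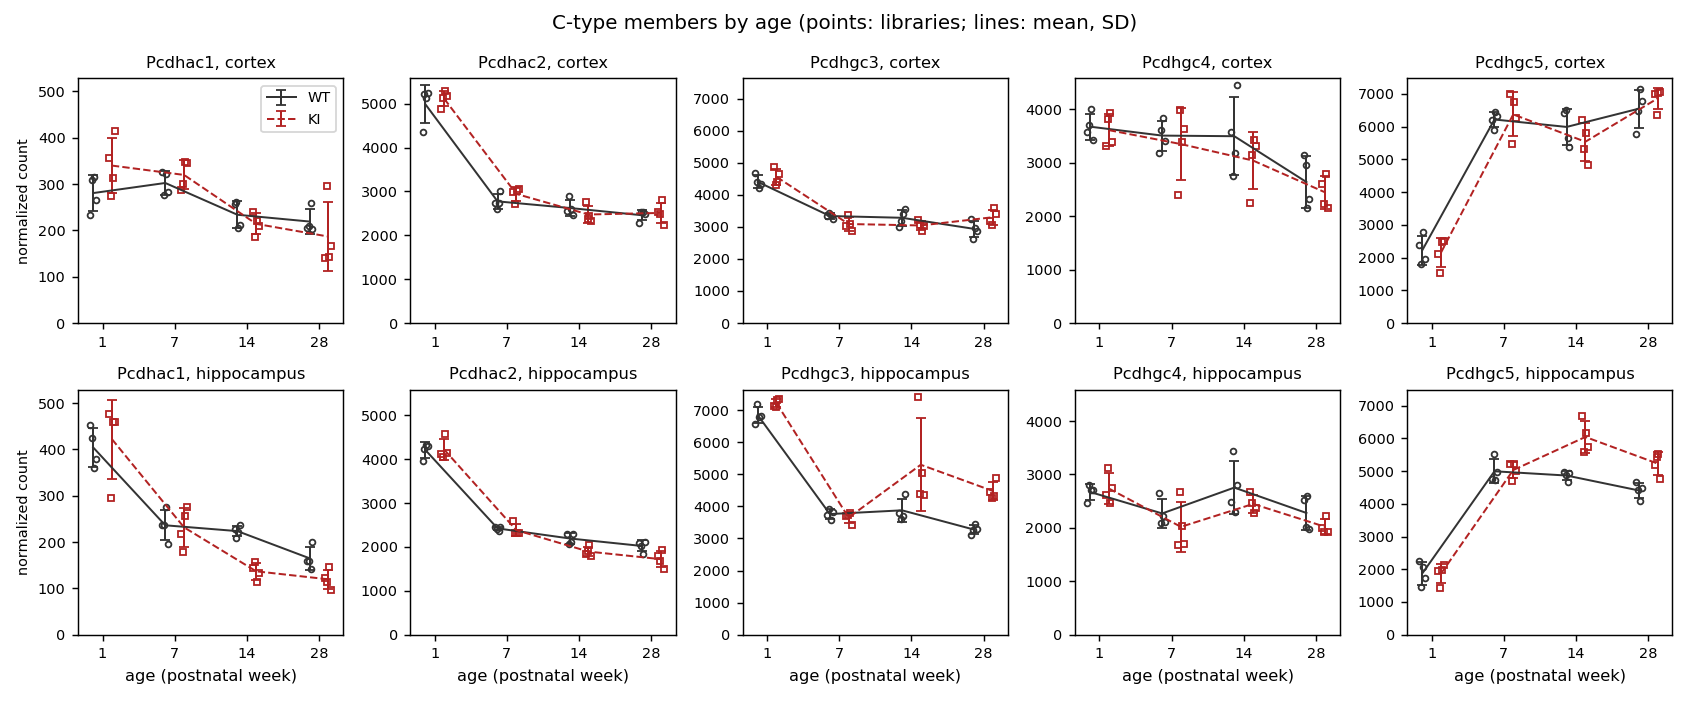
Normalized counts of the 5 C-type members in every library by age in postnatal weeks, region and genotype, with lines through group means. Pcdhgc5 rises between PWK 1 and PWK 7 in both regions, whereas Pcdhac2 and Pcdhgc3 fall.

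Gamma-A and gamma-B genes are the gamma alternate isoforms, sorted by sequence. Of the 12 gamma-A members 11 fell in cortex (median over the 12, -0.80) and 11 in hippocampus (median -0.69). Of the 6 gamma-B members 2 fell in cortex (median -0.21) and 3 in hippocampus (median -0.27). In these counts fell means called lower, beside 32.7% of all genes in cortex and 30.4% in hippocampus. The cortical gamma-B count is near that share. Pcdhga11 had the largest fall among gamma members in cortex (log2 -1.26, adjusted p = 2.29e-08), and Pcdhga1 in hippocampus (log2 -1.02, adjusted p = 1.17e-06). Beta members fell in 16 of 21 cases in cortex and in 10 of 21 in hippocampus. Pcdhb4 led both, with log2 differences of -1.30 and -0.73, and had 101, 180, 89.8 and 110 counts in the WT cortex at PWK 1 and 42.0, 43.1, 48.5 and 52.9 at PWK 7. These 3 genes were picked after their values were seen. Across the 56 members the log2 differences of cortex and hippocampus, which come from the same mice, had a Pearson r of 0.92 and a Spearman rho of 0.886, given as a description since members share reads and libraries.

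**Figure D3:**
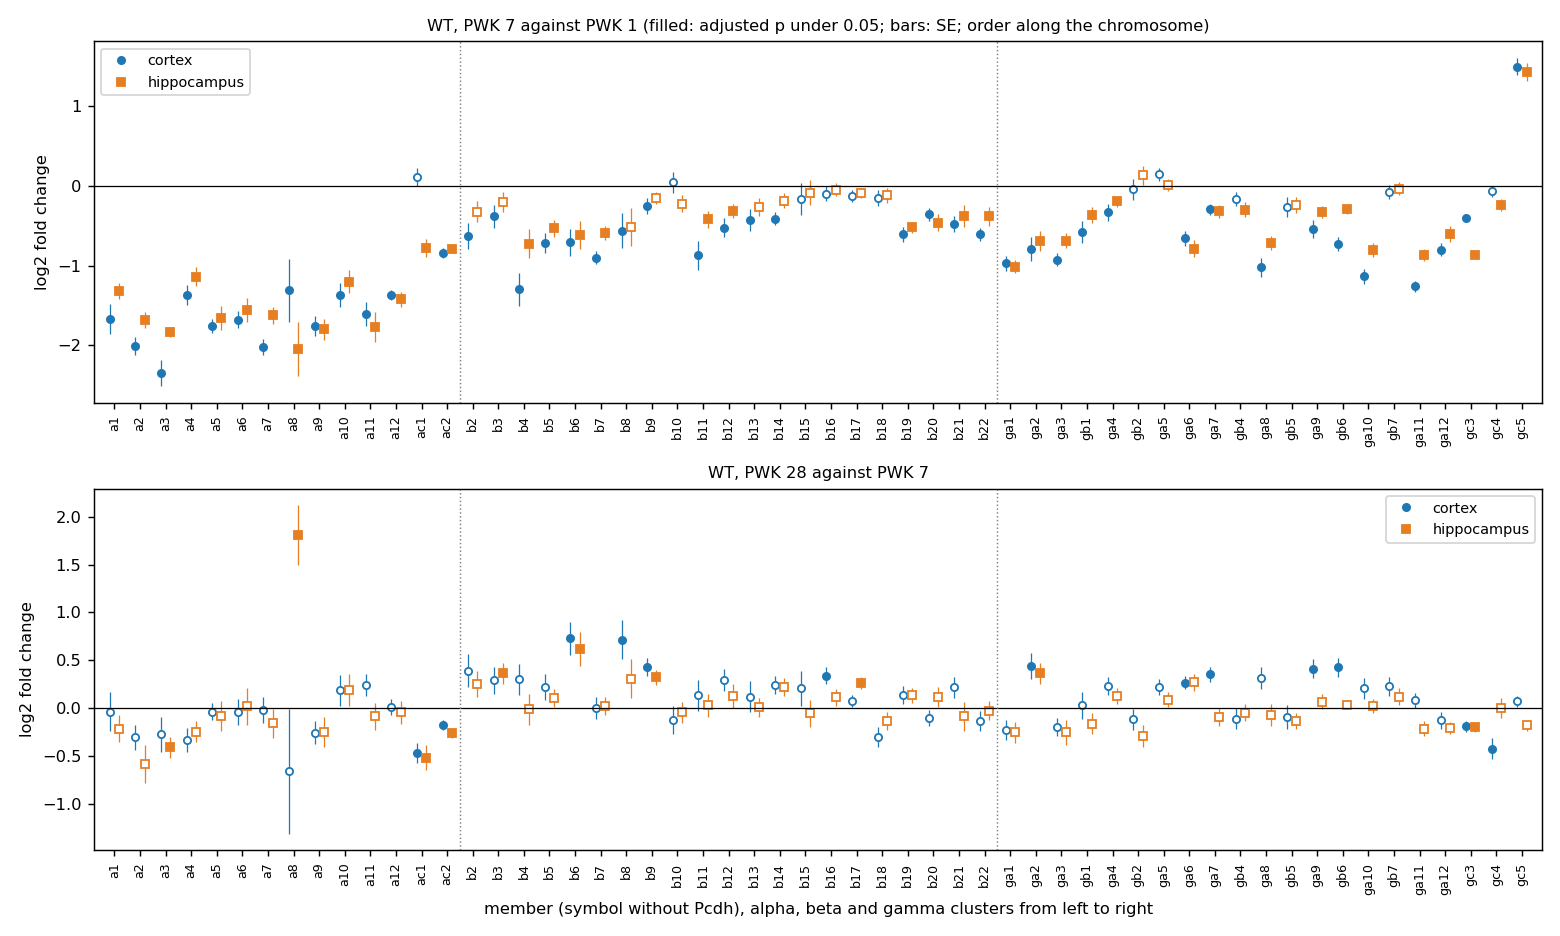
Log2 difference between PWK 7 and PWK 1 in WT cortex and WT hippocampus for each member, arranged by cluster, with filled points for members that passed the test. Alpha members lie near a median of -1.64 in cortex, beta members near -0.48, and Pcdhgc5 stands alone at 1.50.

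Markers of several cell types moved over the same weeks. The summed counts of 5 oligodendrocyte markers went from a range of 5277 to 13677 in the WT cortex at PWK 1 to between 136019 and 172731 at PWK 7, all 5 being called higher, and all 5 were also higher in hippocampus. Of 6 microglial markers 6 were higher in cortex and 5 in hippocampus, of 7 neuronal markers 5 were higher and 2 lower in each region, of 6 astrocyte markers 4 were higher and 1 lower in cortex and 2 and 3 in hippocampus, and both markers of oligodendrocyte precursors were lower in each region. No marker was at zero in any group. Of all genes 32.5% were called higher and 32.7% lower in cortex, and 30.9% and 30.4% in hippocampus. The part of these cell types in the result was not tested. In whole tissue, fewer cells of a type and less RNA per cell cannot be told apart.

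Between PWK 7 and PWK 28 fewer WT members were called. Members called higher were above the share of all genes in both regions. Those called lower were below that share in cortex and near it in hippocampus. In cortex 9 members were higher and 4 lower at PWK 28, beside 10.9% and 11.4% of all genes, and in hippocampus 6 were higher and 4 lower, beside 6.35% and 8.38%. After rescaling to equal totals 9 were higher and 2 lower in cortex. The members called in both regions were Pcdhb6, Pcdhb9 and Pcdhga2, which were higher, and Pcdhac1, Pcdhac2 and Pcdhgc3, which were lower. Pcdhb6 had 52.2, 37.1, 49.3 and 50.3 counts in the WT cortex at PWK 7 and 68.3, 69.7, 88.5 and 88.8 at PWK 28 (log2 0.73, adjusted p = 0.0112). Its hippocampal difference was 0.61 (adjusted p = 0.0427). Pcdhac1 fell by 0.47 in cortex (adjusted p = 0.00847) and by 0.52 in hippocampus (adjusted p = 0.0264). Pcdha8 rose in hippocampus from 4.5, 7.1, 9.8 and 3.9 counts to 21.4, 19.7, 26.3 and 26.9 (log2 1.81, adjusted p = 0.00445). The hippocampal count depended on single libraries. It was 4 in place of 10 without replicate 1 of either age, and 6 without replicate 2, 3 or 4 of PWK 28 or replicate 4 of PWK 7.

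The second comparison asked how the WT hippocampus differed from the WT cortex at each age. Among alpha members more were called lower than higher in hippocampus at each age, and beta and gamma members were on both sides. At PWK 1, 7 members were higher and 16 lower in hippocampus, beside 16.1% and 18.6% of all genes. The counts were 13 and 13 at PWK 7 (20.4% and 20.4% of all genes), 11 and 9 at PWK 14 (17.0% and 17.6%), and 6 and 10 at PWK 28 (18.8% and 19.0%). When libraries were rescaled to equal totals, which put the median of all genes at 0.095 at PWK 1, the split became 14 and 10 at PWK 1, 16 and 10 at PWK 7, 15 and 7 at PWK 14, and 8 and 10 at PWK 28. Of the 14 alpha members 10, 8, 6 and 6 were lower at the 4 ages in turn, with medians of -0.44, -0.35, -0.38 and -0.31, and 1 (Pcdhac1, at PWK 1) was higher. The median over all genes was between -0.002 and 0.011. The medians over beta members were 0.05, 0.18, 0.14 and 0.12, and over gamma members 0.12, 0.21, 0.21 and 0.09.

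Pcdha5, Pcdha9, Pcdha12 and Pcdhac2 were lower in hippocampus, and Pcdhga1 and Pcdhgb5 higher, at all 4 ages, each age being a separate set of mice. These 6 were singled out after their values were seen. Pcdha12 had 1417, 1627, 1629 and 1703 counts in the WT cortex and 1028, 1102, 1027 and 1322 in the WT hippocampus at PWK 1, and 531, 631, 703 and 622 against 376, 344, 506 and 399 at PWK 28. Its groups did not overlap at either age, with log2 differences of -0.51 and -0.62 (adjusted p = 0.000706 and 0.00153). Pcdha5 differed by -0.63, -0.52, -0.59 and -0.57 over the ages. Pcdhac2 differed by -0.24, -0.19, -0.26 and -0.28. Pcdhgb5 had 294, 251, 337 and 263 counts in cortex against 335, 365, 455 and 374 in hippocampus at PWK 1, which overlap by a single pair of libraries, and differed by 0.42, 0.44, 0.53 and 0.40 over the ages. Pcdha11 was lower in hippocampus at PWK 7, 14 and 28. At PWK 28 its cortical libraries had 253, 274, 310 and 352 counts and its hippocampal libraries 170, 148, 154 and 136 (log2 -0.96, adjusted p = 6.11e-05). At PWK 1 its difference was -0.47 (adjusted p = 0.089, and 0.0464 with the replicate number as a block).

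Each C-type differed between the regions at 1 or more ages. At PWK 1 Pcdhgc3 was higher in hippocampus, with 6582, 7206, 6783 and 6815 counts against 4670, 4400, 4196 and 4345 in cortex (log2 0.64, SE 0.04, adjusted p = 1.45e-06). The difference was 0.17 at PWK 7 (adjusted p = 0.00488), 0.24 at PWK 14 (adjusted p = 0.0216) and 0.16 at PWK 28 (adjusted p = 0.061). Pcdhac1 was higher in hippocampus at PWK 1 (log2 0.53, adjusted p = 0.00351) and lower at PWK 7 (-0.36, adjusted p = 0.022) and PWK 28 (-0.41, adjusted p = 0.0249). Pcdhgc4 was lower at PWK 1 and 7 (log2 -0.46 and -0.63), and Pcdhgc5 was lower from PWK 7 on (-0.32, -0.30 and -0.57). At PWK 1 the difference of Pcdhgc5 was -0.25 (adjusted p = 0.23, and 0.0141 with the replicate number as a block). Over all genes the block gave more calls at PWK 1 (6591 in place of 6378) and PWK 14 (6387 in place of 6364). It gave fewer at PWK 7 (7069 in place of 7509) and PWK 28 (6570 in place of 6958). At PWK 28 Pcdhgc5 had 5786, 6479, 7147 and 6792 counts in cortex and 4657, 4407, 4093 and 4476 in hippocampus. Among beta members Pcdhb4 was higher in hippocampus at PWK 7, 14 and 28 (log2 0.90, 0.56 and 0.59).

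**Figure D4:**
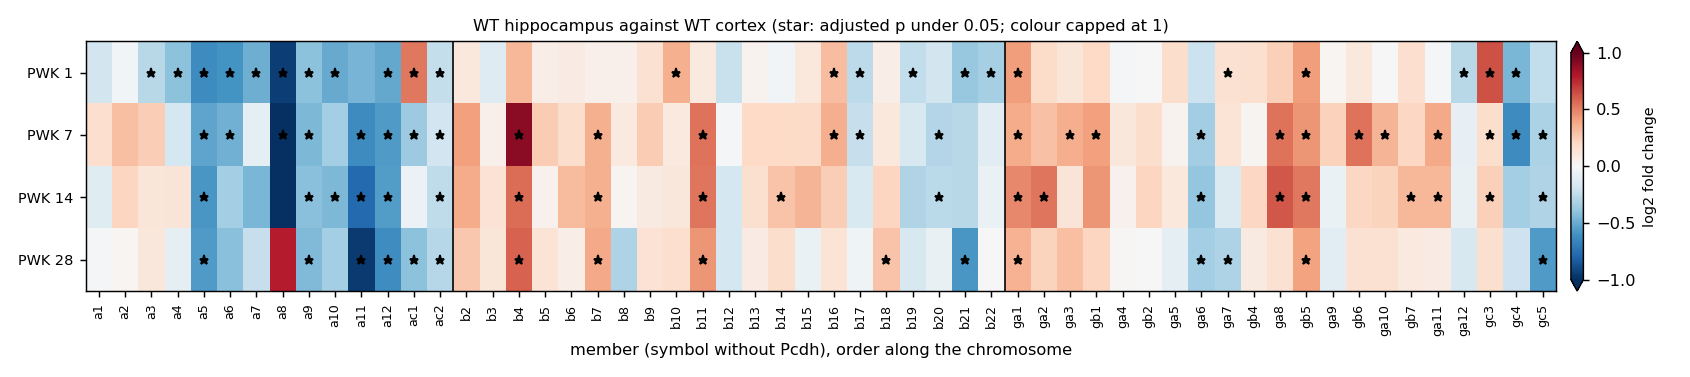
Colour map of the log2 difference between WT hippocampus and WT cortex for each member at the 4 ages. Members are in order along the chromosome, stars mark those that passed the test, and the colour scale is capped. Most alpha members are lower in hippocampus at each age, with medians between -0.44 and -0.31.

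Hippocampal dissections held differing amounts of choroid plexus. The summed counts of 5 of its markers ranged from 1964 to 123525 over the hippocampal WT libraries at PWK 14 and 28 and from 284 to 827 in the cortical ones, except for 1 cortical WT library at PWK 28 with 21448. The 7 neuronal markers were mostly lower in the WT hippocampus, with 4, 6, 5 and 7 called lower at the 4 ages in turn and 1 higher at PWK 1 (medians -0.21, -0.25, -0.25 and -0.37), and summed to between 113775 and 133637 there and between 144481 and 174248 in the WT cortex. All 3 ependymal markers were higher in hippocampus at each age, and of 6 astrocyte markers 5, 3, 3 and 3 were higher and 1 lower at each age. Of all genes 16.1%, 20.4%, 17.0% and 18.8% were higher at the 4 ages in turn, and 18.6%, 20.4%, 17.6% and 19.0% lower. The part of these cell types in the regional differences was not tested. At PWK 14, leaving out hippocampus WT replicate 4 gave 13 called members in place of 20.

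The third comparison set KI against WT mice. At PWK 1 and PWK 7 no member was called in either region. At PWK 14 and 28 single isoforms were called, with differences of at most 0.71 on the log2 scale. Their counts were near or below the shares of all genes, except for the lower members in cortex at PWK 28. That cortical count depended on single libraries. Cyfip2 itself was 0.44 lower on the log2 scale in the KI cortex at PWK 28 (SE 0.09, adjusted p = 0.0058), and in the 7 other comparisons of KI with WT its difference lay between -0.33 and 0.11 without passing the test. The change alters 1 residue of the protein, so the amount of Cyfip2 RNA does not check the labels.

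At PWK 1 limma called 0 members in cortex, where 0.00546% of all genes were called, and 0 in hippocampus (0.0109% of all genes). At PWK 7 it called 0 members in cortex (0.00545%) and 0 in hippocampus (0.0218%). Before adjustment, a p under 0.05 was found for 5 cortical members at each of these ages (965 and 1477 of all genes), and for 1 and 2 hippocampal members (1003 and 1144 of all genes). The members with the smallest p were Pcdhgb5 (log2 -0.38, adjusted p = 0.908) and Pcdhga9 (0.37, adjusted p = 0.422) in cortex and Pcdhb16 (-0.25, adjusted p = 0.867) and Pcdhgb4 (0.26, adjusted p = 0.631) in hippocampus.

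At PWK 14 in cortex limma called 0 members, while 5.18% of all genes were called and 8 members and 3786 of the 18367 genes tested had an unadjusted p under 0.05. The medians were -0.12 over alpha, -0.09 over beta and -0.16 over gamma members, and -0.002 over all genes. The gamma sum was 22912, 22777, 21378 and 22682 counts in WT and 20790, 20122, 20832 and 19175 in KI. These do not overlap, and no test is given for a sum over members. The alpha and beta sums of WT and KI overlapped. Pcdha10 had the smallest p, with 224, 274, 208 and 218 counts in WT and 163, 185, 178 and 141 in KI (log2 -0.47, SE 0.13, adjusted p = 0.0606). When all 64 libraries were fitted together, 4 members were called lower.

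At PWK 28 in cortex 2 members were higher and 9 lower in KI, beside 12.2% and 10.0% of all genes. Both higher ones were alpha members, and the lower ones were 3 beta and 6 gamma members. Pcdhga11, a gamma alternate isoform, had 1138, 1028, 1066 and 1232 counts in WT and 735, 962, 761 and 715 in KI. No KI library reached the lowest WT library (log2 -0.50, SE 0.10, adjusted p = 0.00699), and the call held in all 8 fits that left out a library. The other gamma members that fell were Pcdhgb7 (log2 -0.57), Pcdhga12 (-0.52), Pcdhgb6 (-0.46), Pcdhga7 (-0.33) and Pcdhga5 (-0.30). The beta members that fell were Pcdhb8 (-0.66), Pcdhb21 (-0.45) and Pcdhb17 (-0.26). Pcdhb17 had 496, 493, 514 and 502 counts in WT and 448, 418, 374 and 435 in KI, without overlap. Pcdha4 rose, with 392, 386, 346 and 365 counts in WT and 491, 436, 451 and 537 in KI (log2 0.36, adjusted p = 0.0205), and Pcdha5 rose by 0.31 (adjusted p = 0.0356). Pcdha4 has little sequence of its own (2.2%), so its value depends on how shared reads were divided. Pcdhb21, Pcdhgb6, Pcdhga7, Pcdhga5 and Pcdhb17 were named after their values were seen.

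The cortical count at PWK 28 depended on single libraries. It stayed at 11 without KI replicate 2, and in the 7 other fits that left out a library it lay between 1 (without WT replicate 3) and 5 (without KI replicate 1 or 4), with 2 without WT replicate 4, 3 without KI replicate 3, and 4 without WT replicate 1 or 2. The beta sum at this age was 4095, 4215, 4441 and 4418 in WT and 3546, 4032, 3643 and 3773 in KI, without overlap. The gamma sum lay between 21382 and 22414 in WT and between 20356 and 22138 in KI, which overlap. After rescaling to equal totals the gamma groups did not overlap. The alpha sums overlapped in both settings. None of the C-types was called in cortex. Pcdhgc3 had 3257, 2634, 2976 and 2877 counts in WT and 3177, 3045, 3590 and 3387 in KI, which overlap (log2 0.17, adjusted p = 0.138). The share of gamma C-types in gamma RNA per kb was 55.0% ± 1.32 (SD, n = 4) in WT and 59.7% ± 1.78 in KI.

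At PWK 14 in hippocampus 2 members were higher and 2 lower in KI, beside 7.64% and 7.95% of all genes. Pcdhac1 had 227, 209, 223 and 236 counts in WT and 145, 156, 114 and 133 in KI (log2 -0.71, SE 0.13, adjusted p = 0.00733). Pcdhga12 had 766, 754, 729 and 721 in WT and 512, 483, 538 and 578 in KI (log2 -0.49, SE 0.08, adjusted p = 0.00361). Neither gene's groups overlapped. Pcdhgb5 rose from 332, 250, 301 and 283 counts in WT to 497, 408, 485 and 380 in KI (log2 0.60, SE 0.12, adjusted p = 0.0132). Pcdhgc5 had 4967, 4881, 4671 and 4936 in WT and 6680, 5597, 6168 and 5727 in KI (log2 0.31, SE 0.07, adjusted p = 0.0135). All 4 calls held in each of the 8 fits that left out a library. Pcdhgc3 had 3808, 3607, 3704 and 4392 in WT and 7411, 4397, 5033 and 4353 in KI, so that KI replicate 1 stood far above the rest, and it was not called (log2 0.42, SE 0.16, adjusted p = 0.101). Without that library its difference was 0.25 (adjusted p = 0.0672). In the fit over all 64 libraries, 5 members were higher and 7 lower.

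At PWK 28 in hippocampus 6 members were higher and 3 lower in KI, beside 8.92% and 6.91% of all genes. After rescaling to equal totals the split was 3 higher and 5 lower, as Pcdhgb2, Pcdha4 and Pcdhga6 lost and Pcdhac1 and Pcdhac2 gained the call. Pcdhgc3 rose from 3094, 3263, 3463 and 3282 counts in WT to 4434, 4252, 4330 and 4901 in KI, without overlap (log2 0.45, SE 0.05, adjusted p = 0.000436). Pcdhgc5 had 4657, 4407, 4093 and 4476 in WT and 5201, 5439, 5535 and 4747 in KI (log2 0.25, SE 0.06, adjusted p = 0.0158). Both calls held in all 8 fits that left out a library. Pcdhgb5 had 280, 312, 278 and 302 in WT and 365, 450, 414 and 321 in KI (log2 0.39, adjusted p = 0.0317). Pcdhgb2 (0.32), Pcdha4 (0.31) and Pcdhga6 (0.28) were also higher. Pcdha9 fell by 0.44 (adjusted p = 0.0414), Pcdhga12 by 0.27 (adjusted p = 0.0245) and Pcdhb17 by 0.24 (adjusted p = 0.0456). The count of 9 was 2 without WT replicate 1 and 3 without WT replicate 2, 3 or 4 or KI replicate 1 or 2.

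At the older ages, Pcdhgb5 and Pcdhgc5 were higher and Pcdhga12 lower in the KI hippocampus at both PWK 14 and PWK 28, in different mice. At PWK 28, Pcdha4 was higher and Pcdhb17 and Pcdhga12 were lower in KI in both regions, which were taken from the same mice. The value of Pcdha4 depends on how shared reads were divided, and its hippocampal call was lost after rescaling to equal totals. The alpha C-types Pcdhac1 and Pcdhac2 missed the threshold in hippocampus at PWK 28 (log2 -0.47 and -0.24, adjusted p = 0.0668 and 0.0649). Pcdhac2 had 2094, 2034, 1843 and 2122 counts in WT and 1801, 1669, 1928 and 1492 in KI, which overlap. The gamma sum in hippocampus at PWK 28 was 20552, 20008, 19948 and 19590 in WT and 22128, 21987, 22952 and 21463 in KI, without overlap. At PWK 14 it was between 21220 and 23739 in WT and between 22359 and 28915 in KI, which overlap. The alpha sum in hippocampus lay on the other side. At PWK 14 it was 5150.2, 4816, 4921 and 5239 in WT and 4759, 4773, 4439 and 4248 in KI, without overlap, and at PWK 28 between 4332 and 4760.0 in WT and between 3882 and 4435 in KI, which overlap. After rescaling to equal totals the alpha groups overlapped at PWK 14 and not at PWK 28.

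**Figure D5:**
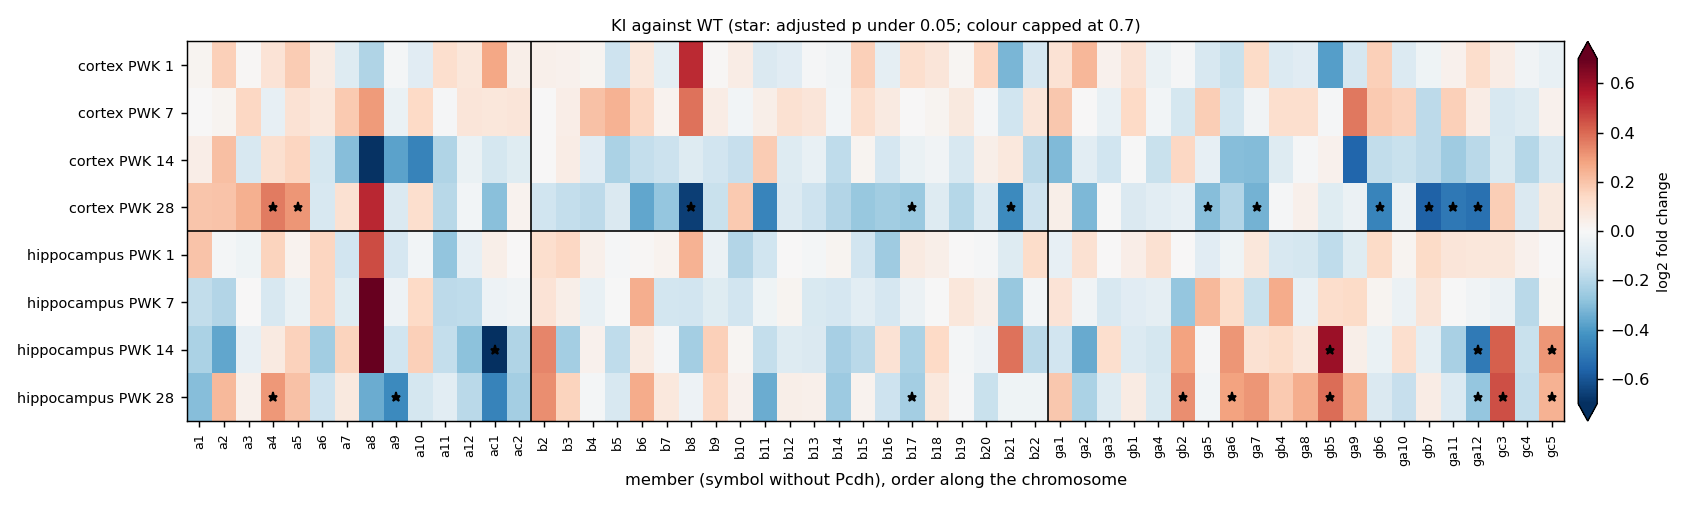
Colour map of the log2 difference between KI and WT for each member in cortex and hippocampus at all ages. Members are in order along the chromosome, stars mark those that passed the test, and the colour scale is capped. In hippocampus at PWK 28 Pcdhgc3 differs by 0.45, and in cortex at PWK 28 the called gamma members differ by between -0.57 and -0.30.

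Markers of glia and of neurons differed over the same hippocampal libraries. The summed counts of 6 astrocyte markers were between 60621 and 67630 in WT and between 93381 and 208851 in KI at PWK 14, the highest being KI replicate 1, and between 62089 and 65333 in WT and 97155 and 107837 in KI at PWK 28. At these ages 2 and 3 of the 6 were called higher. The 6 microglial markers summed to between 6454 and 8078 in WT and between 6759 and 17203 in KI at PWK 14 (0 called), the highest again being KI replicate 1, and to between 7449 and 8502 in WT and 9371 and 9797 in KI at PWK 28 (3 higher). Of 7 neuronal markers 1 was higher in hippocampus at PWK 14 and 3 at PWK 28 (medians 0.15 and 0.12), and 1 of 5 oligodendrocyte markers was higher at PWK 28. In cortex at PWK 28 the astrocyte markers summed to between 50847 and 57481 in WT and between 51073 and 60197 in KI (1 higher and 2 lower), 1 microglial marker was higher, and the 7 neuronal markers summed to between 144481 and 163101 in WT and between 187554 and 212717 in KI (3 higher). No marker was at zero in any group. Of all genes 7.64% were higher and 7.95% lower in hippocampus at PWK 14, and 8.92% and 6.91% at PWK 28. In cortex at PWK 28 the shares were 12.2% and 10.0%. The part of these cell types in the KI differences was not tested.

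Whether the KI difference depended on region was tested as an interaction, where a positive value means a larger KI minus WT difference in hippocampus. At PWK 28, 2 members passed, both positive, beside 2.39% of all genes positive and 2.18% negative. Pcdhga6 had 816, 830, 874 and 892 counts in the WT cortex and 805, 662, 769 and 725 in the KI cortex, against 661, 758, 609 and 667 in the WT hippocampus and 880, 822, 753 and 820 in the KI hippocampus. KI libraries were lower in cortex and, apart from 1 overlapping pair, higher in hippocampus (interaction 0.49, SE 0.11, adjusted p = 0.0153), and the call held in all 16 fits that left out a library. Pcdhga7 had 773, 658, 840 and 771 against 686, 563, 648 and 527 in cortex, and 629, 541, 667 and 611 against 957, 721, 725 and 653 in hippocampus (interaction 0.64, SE 0.16, adjusted p = 0.0332). That call held in 8 of 16 such fits, and without cortex KI replicate 2 the count was 4. The median interaction was 0.25 over gamma, 0.17 over beta and -0.17 over alpha members, and 0.002 over all genes. At PWK 14 limma called 0 members, while 2.85% of all genes were called and 9 members and 3257 of the 18424 genes tested had an unadjusted p under 0.05. The smallest p were those of Pcdhgc5 (0.42, SE 0.11, adjusted p = 0.0552) and Pcdhga6 (0.61, adjusted p = 0.0739), and without cortex KI replicate 1 the count was 2, with 1 without cortex WT replicate 4 or hippocampus KI replicate 2 or 4.

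Whether the KI difference changed between PWK 14 and PWK 28 was tested in the same way. In cortex limma called 0 members and 0.0% of all genes. There 6 members and 2770 of all genes had an unadjusted p under 0.05, the smallest among members being those of Pcdhb21 (-0.52, adjusted p = 0.212) and Pcdhgc3 (0.28, adjusted p = 0.215). Without cortex KI replicate 2 of PWK 28 the count was 1. In hippocampus it also called 0 members and 0.0% of all genes, with 2 members and 2274 genes under 0.05, led by Pcdhga12 (0.23, adjusted p = 0.353) and Pcdhb3 (0.39, adjusted p = 0.364). The calls made at 1 of these ages and not at the other are thus not shown to differ between them.

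Genes that set promoter choice were followed as a list. Of 15 such genes, 9 were lower and 1 higher in the WT cortex at PWK 7 than at PWK 1, and 6 were lower and 1 higher in hippocampus, beside 32.7% and 32.5% of all genes in cortex and 30.4% and 30.9% in hippocampus. The DNA methyltransferase Dnmt3a fell by 1.92 in cortex and 1.84 in hippocampus on the log2 scale. Wiz, a zinc-finger partner of CTCF sites, fell by 1.25 and 0.91, and Ctcf itself by 0.11 in cortex. Wapl, which releases cohesin, rose by 0.37 and 0.47. Between PWK 7 and 28, 4 were higher and 1 lower in cortex, and 1 was higher and 1 lower in hippocampus, beside the shares of all genes given above for these ages (10.9% and 11.4%, 6.35% and 8.38%). In KI mice 3 were lower in cortex at PWK 28 (Dnmt3a, Stag2 and Smc3, with log2 differences from -0.32 to -0.24). In hippocampus 1 was higher (Rest, 0.51) and 2 lower (Wiz, -0.35, and Setdb1, -0.20) at PWK 14, and 1 was lower (Setdb1, -0.29) at PWK 28. Of all genes 10.0% were lower in cortex at PWK 28, 7.64% higher and 7.95% lower in hippocampus at PWK 14, and 6.91% lower at PWK 28. In the WT hippocampus against the WT cortex 2, 7, 6 and 4 were higher and 3, 1, 2 and 2 lower at the 4 ages in turn. Of all genes 16.1%, 20.4%, 17.0% and 18.8% were higher and 18.6%, 20.4%, 17.6% and 19.0% lower.

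Of 11 intracellular partners and proteases of the protocadherins, 2 were higher and 8 lower at PWK 7 than at PWK 1 in the WT cortex, and 2 and 6 in the hippocampus, beside 32.5% of all genes higher and 32.7% lower in cortex and 30.9% and 30.4% in hippocampus. The kinase Ptk2b, a partner of the alpha tail, rose by 1.29 in cortex, and the receptor Ret and the actin-binding Marcks fell by 2.26 and 1.52. In KI mice Ret was higher in cortex at PWK 28 (log2 2.88) and in hippocampus at PWK 14 and 28 (1.88 and 0.79). Ptk2b was lower in each (-0.42, -0.61 and -0.30). These 2 are examples from the 11, and counts of called partners in KI mice are not given here. Of 11 WAVE complex genes, 7 were higher and 2 lower at PWK 7 than at PWK 1 in cortex, and 8 and 1 in hippocampus, beside the same shares of all genes. Cyfip2 rose by 0.98 and 1.00. In KI mice 1 of the 11 was higher (Brk1, 0.34) and 1 lower (Cyfip2) in cortex at PWK 28, and Nckap1l, the form of blood-derived cells and microglia, was higher in hippocampus at PWK 28 (12.2% of all genes were higher and 10.0% lower in cortex, and 8.92% higher in hippocampus).

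The protocadherins outside the clusters gave a contrast by gene. Of 12 such genes, 2 were higher and 8 lower at PWK 7 than at PWK 1 in the WT cortex, and 2 and 9 in the hippocampus, beside the shares of all genes just given for these ages, and Pcdh12, an endothelial member, fell by 4.13 and 3.56. In KI mice 1 was higher and 2 lower in cortex at PWK 14, 3 and 1 in cortex at PWK 28, 3 and 2 in hippocampus at PWK 14, and 4 and 2 in hippocampus at PWK 28. Of all genes 5.18% were called in cortex at PWK 14, 12.2% were higher and 10.0% lower in cortex at PWK 28, 7.64% and 7.95% in hippocampus at PWK 14, and 8.92% and 6.91% at PWK 28. Pcdh8, an activity-regulated member, was higher by 0.73 in cortex at PWK 28 and by 1.47 in hippocampus at PWK 14. Pcdh20 was lower by 0.84 and 0.86 in the same comparisons, sizes that exceed those of every clustered member called there.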

How the data were processed

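RNA from 64 libraries was quantified by the authors with Salmon, summed per gene with tximport and normalized with DESeq2 (GRCm38). The submitters' notes give Salmon 0.11.2, R 3.6.0 and DESeq2 1.19.11. The methods of the paper name later versions of each, so the version used is uncertain. The deposited values are normalized estimated counts, a signal that was not whole, so read depth per library could not be recovered and no count model was used. Values were tested here as log2(value + 1) with limma 3.58.1 (with a trend of the spread on the mean), after keeping genes with a mean of at least 1, with the Benjamini-Hochberg adjustment over all genes and a threshold of 0.05. Each comparison used its own groups. Alternatives were another pseudocount, other filters, rescaling to equal totals, a GC correction, a replicate block, a fit of all libraries and leaving out each library. The fit was tested on simulated data. The members and gene lists were chosen with earlier results of these data known, and 1 gene of these lists is not reported here. Named genes are the C-types, the 3 highest and 2 lowest per kb of each cluster, up to 4 called in each direction per comparison by size of change, the 2 smallest p of each interaction, called genes of the lists, and, where none was called, the member with the smallest p. Replicates are separate mice, and sex was not a term.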

Additional observations from a re-analysis of the deposited data

Results flagged for a closer look

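Within groups of 4 libraries, a library was singled out where its gap to the nearest other exceeded Dixon's critical share of the group's range. Of 224 such groups of cluster sums and selected members 20 met this, and chance alone gives about 1 in 20. Among cluster sums, alpha was low in cortex PWK 1 WT replicate 1 (13981 normalized counts), in hippocampus PWK 28 WT replicate 3 (4332) and in hippocampus PWK 28 KI replicate 4 (3882). Beta was low in cortex PWK 14 WT replicate 4 (3537). Gamma was high in cortex PWK 1 WT replicate 3 (25760.0) and low in cortex PWK 14 WT replicate 3 (21378).

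Pcdhac1 stood apart in cortex PWK 28 WT replicate 3 (260.2), cortex PWK 28 KI replicate 2 (297) and hippocampus PWK 1 KI replicate 2 (295). Pcdhac2 did so in cortex PWK 1 WT replicate 1 (4346), cortex PWK 28 WT replicate 1 (2285), hippocampus PWK 1 KI replicate 3 (4587) and hippocampus PWK 7 KI replicate 1 (2586), and Pcdhgc5 in cortex PWK 28 KI replicate 2 (6370.1). Pcdha12 was high in replicate 1 of KI at PWK 14 in cortex (774) and in hippocampus (486), and Pcdha5 in hippocampus PWK 7 WT replicate 3 (409). Pcdhb9 in cortex PWK 7 WT replicate 2 (231), Pcdhb17 in cortex PWK 14 KI replicate 1 (401) and Pcdhb20 in cortex PWK 14 WT replicate 4 (265) completed the set.

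The KI minus WT difference was larger in hippocampus than in cortex at PWK 28 for Pcdhga7 (log2 0.64) and Pcdhga6 (0.49), by the interaction test. For both genes KI was on average lower than WT in cortex and higher in hippocampus. The call of Pcdhga7 depended on single libraries, and that of Pcdhga6 did not.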

How the results depend on the processing

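The number of members called moved by over 1.5 times in 7 of 8 fits that left out a library for KI in cortex at PWK 28, 6 of 8 in hippocampus at PWK 28, 6 of 8 for WT hippocampus at PWK 28 against PWK 7 and 9 of 16 for genotype by region at PWK 28, and in a few other settings. With the replicate number as a block it was 1 in place of 0 for KI against WT in cortex at PWK 14, 5 in place of 9 in hippocampus at PWK 28, 6 in place of 10 for WT hippocampus at PWK 28 against PWK 7, and 2 in place of 0 for genotype by region at PWK 14. Between genotypes or ages equal numbers are different mice, and the labels give no pairing of them. There the block has no basis in the design. Of 32 same-number pairs of KI and WT 10 correlated above 0.1, with a median of 0.045. Both regions came from each mouse, but the labels do not say that equal numbers mark 1 mouse. Of 32 same-number pairs of cortex and hippocampus 17 correlated above 0.1, so the block was not used throughout. At PWK 1 all 4 WT pairs did, and there the block gave 27 called in place of 23 between the regions. In the fit of all libraries it was 4 in cortex at PWK 14, 12 in place of 4 in hippocampus at PWK 14, 6 for WT hippocampus at PWK 28 against PWK 7, and 4 for genotype by region at PWK 14 and at PWK 28. With each library left out, counts ranged from 1 to 11 for KI in cortex at PWK 28, 4 to 6 and 2 to 7 in hippocampus at PWK 14 and 28, 40 to 44 and 38 to 43 for PWK 7 against PWK 1 in cortex and hippocampus, 10 to 13 and 4 to 8 for PWK 28 against PWK 7, 16 to 23, 20 to 26, 13 to 21 and 13 to 17 for the regions at the 4 ages, 0 to 2 and 1 to 4 for genotype by region, and 0 to 1 and 0 to 0 for genotype by age. Directions turned for 2 small differences, Pcdhac2 in KI cortex at PWK 28 (0.03, and -0.021 after rescaling, -0.027 to 0.083 without single libraries) and Pcdhgc4 in WT hippocampus at PWK 28 against PWK 7 (0.0015, and -0.065 to 0.080 without single libraries). The cause was not tested. Of 928 values of named genes in the other settings, 868 kept direction and side of the threshold. Read depth per library is unknown, and 4 libraries per group limit what small differences can be detected.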
